A study of Mus musculus with 21 samples.

Results

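Nodal and BMP signals act through related but separate branches of the TGF-beta superfamily, and 9 mouse genes that carry or answer these signals are described here: Nodal, Bmp4, Lefty1, Lefty2, Smad7, Skil, Id1, Id2 and Id3. They were picked by symbol from 51467 genes in the count tables, and all 9 were among the 14518 genes with enough counts to be tested. The samples are mouse embryonic stem cells (ESCs), the cultured cells of the early embryo that can still form every tissue of the body. DDX6, an RNA helicase of the decapping and translational repression machinery, was removed from them by CRISPR. RNA made within a 30 min pulse of 500 µM 4-thiouridine (4sU, a uridine analogue that lets newly made RNA be pulled out) was sequenced beside the total RNA of the same culture.

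The wild type was represented by 3 cultures and Ddx6 KO by 4 cultures, 2 of KO clone 1 and 2 of KO clone 2, so that 7 cultures gave 14 libraries. All groups had the same medium, with serum, LIF and the 2i inhibitors, and all were labelled in the same way. Each KO clone is a single line, and repeat cultures of a clone do not replace further clones. The p-values therefore describe the spread between these cultures and no more.

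Nodal is a secreted ligand that signals through Activin receptors, the co-receptor Tdgf1 and SMAD2 and SMAD3, and it switches on its own gene and those of its inhibitors Lefty1 and Lefty2. BMP ligands such as Bmp4 signal through SMAD1 and SMAD5, and the Id genes are their best known direct targets; the Id proteins lack a DNA-binding region and hold back basic helix-loop-helix factors. Smad7 blocks both branches at the receptors, Skil (SnoN) is a corepressor of SMAD-driven transcription, and both genes are switched on by the signals they restrain. In mouse ESCs, BMP signalling with LIF helps to hold off neural differentiation and Nodal signalling is also active.

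Lefty1 and Lefty2 share a feature that none of the other 7 genes has, a full site for the miRNAs that dominate ESCs. DDX6 is a partner of the miRNA silencing machinery, and the 3′ UTR of both Lefty genes holds AGCACTTA, the 8-base match to the seed of this family. Only 3.19% of 11880 tested coding genes with an annotated 3′ UTR held those letters. The transcripts of both Lefty genes share 306 runs of 50 bases, so their sites need not be independent of each other. A part of the site in the changes given below was not tested. The windows are given on build GRCm38 from Gencode M21 transcripts, plus strand, with the site in capitals.
Lefty1, chr1:180938198-180938227: ctgcactgtatgcgaAGCACTTAcatgtat
Lefty2, chr1:180897902-180897931: ccatcacccagtttaAGCACTTAcatgggt
The site begins at base 239 of 425 of the Lefty1 3′ UTR and at base 105 of 1290 of the Lefty2 3′ UTR, counted at its GCACTT core. Those miRNAs come from the mir-290 cluster on chromosome 7 and the mir-302 cluster on chromosome 3. The RefSeq mature forms (GRCm38.p6) with the seed AAGUGCU are printed with bases 2 to 8 in capitals, to be read against the sites.
miR-291a-3p, chr7:3218968-3218989: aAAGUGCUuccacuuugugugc
miR-294-3p, chr7:3220691-3220712: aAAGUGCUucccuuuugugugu
miR-295-3p, chr7:3220815-3220837: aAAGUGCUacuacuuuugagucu
miR-302b-3p, chr3:127545275-127545297: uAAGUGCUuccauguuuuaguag
miR-302d-3p, chr3:127545665-127545687: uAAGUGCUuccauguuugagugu

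Sites of 6 bases (GCACTT) without the flanking letters were found in Nodal, Skil and Smad7, and 30.6% of the coding genes hold at least 1 such core. The AU-rich element TATTTAT, a letter run bound by decay factors, occurred in 5 of the 9 genes: Id2, Bmp4, Nodal, Smad7 and Skil, against 27.9% of the coding genes. It is shown in capitals for Id2, without a called change in stability, and for Nodal, with a rise. Of the other genes with the element, Smad7 rose in stability and Bmp4 and Skil did not pass the test. A part of the element in stability was not tested. Id2 holds 2 such elements, at bases 212 and 461 of a 3′ UTR of 783 bases, and the first is printed. Nodal holds 1.
Id2, minus strand, chr12:25094354-25094383: tgtgataccgtTATTTATgagagactttca
Nodal, plus strand, chr10:61424943-61424972: atatatatatgTATTTATttttgatgccat
Id1 and Id3 held neither a seed core nor an AU-rich element.

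Read totals lay between 2441639 and 3570192 counts in the 4sU libraries, both sequencing runs summed, and between 5724179 and 7369651 in the total RNA libraries. Levels are counts scaled to a common library size with TMM factors (CPM), where 3 counts are worth at most 1.23 CPM unscaled in 4sU and 0.524 CPM in total RNA. Errors of levels are SDs over the 3 wild-type or the 4 KO cultures, and errors of log2 fold changes are SEs of the fit. Ddx6 was at 333, 383 and 391 CPM in wild-type total RNA and at 57.2, 67.7, 23.1 and 21.5 CPM in the KO cultures, which came to -3.12 ± 0.32 on the log2 scale (adjusted p = 9.22e-06). The 7 naive pluripotency markers summed to between 4377 and 4559 CPM in wild type and to between 4535 and 4703 CPM in KO. Of these, 4 rose in total RNA (Nanog by 0.59, Klf4 by 0.37, Esrrb by 0.22 and Zfp42 by 0.16 on the log2 scale), Tfcp2l1 fell by 0.51, and Pou5f1 (adjusted p = 0.212) and Sox2 (adjusted p = 0.491) did not pass the test. The 3 tested markers of the primed epiblast, Otx2, Dnmt3b and Pou3f1, were lower in KO, and the list summed to between 140.3 and 153 CPM in wild type and to between 79.98 and 91.2 CPM in KO. The 4 fibroblast markers summed to between 3.33 and 5.73 CPM in wild type and to between 10.7 and 12.6 CPM in KO, where Col1a1 and Thy1 passed the test and Col1a2 and Col3a1 were near 0. Mesoderm markers summed to at most 1.8 CPM. The 3 neurectoderm markers summed to between 16.5 and 20.7 CPM in wild type and between 14.2 and 16.9 CPM in KO. For the 3 trophoblast markers the sums were between 36.6 and 44.9 CPM in wild type and between 37.2 and 46.0 CPM in KO. Their tested genes, Sox1 (adjusted p = 0.0651) and Tfap2c (adjusted p = 0.65), did not pass. The 4 endoderm markers summed to between 5.51 and 8.33 CPM in wild type and between 6.04 and 7.68 CPM in KO. Gata4, the endoderm marker that passed the filter, rose in total RNA (log2 fold change 0.65, adjusted p = 0.0283). The other endoderm markers were too low to be tested. Mean total RNA in wild type and KO was 1.94 and 0.57 CPM for Sox17, 0.77 and 0.28 CPM for Gata6, and 0.12 and 0.14 CPM for Foxa2. In bulk RNA, a change in the share of cells of a type cannot be told apart from a change in RNA per cell, and the part of these marker shifts in the results below was not tested.

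Nascent RNA of the 9 genes changed in both directions, and mRNA stability changed in fewer of them. In 4sU RNA, 4 genes rose (Id1, Id3, Smad7 and Skil), 4 fell (Id2, Lefty1, Lefty2 and Nodal) and Bmp4 did not pass the test, where 20.6% of all tested genes rose and 21% fell. In total RNA, 5 rose (the same 4 and Nodal), 3 fell (Id2, Lefty1 and Lefty2) and Bmp4 did not pass, where 19.5% of all genes rose and 31% fell. In mRNA stability, read as the change of the total over 4sU ratio, Nodal, Smad7 and Id3 rose, Lefty2 fell and 5 did not pass, where 3.78% of all genes rose and 8.6% fell. Calls past the fold threshold of the study, an absolute log2 fold change over 1, numbered 4 in nascent RNA (Id1, Id2, Lefty1 and Lefty2; 10.9% of all genes), 4 in total RNA (Id1, Id2, Id3 and Lefty2; 10.1%) and 0 in stability (1.08%). The wild-type and KO cultures did not overlap for 8 of the 9 genes in nascent RNA (41.7% of all genes), for 8 in total RNA (52.4%) and for 4 in the ratio (22.9%).

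The median log2 fold change of the 9 genes was 0.0034 in nascent RNA, 0.34 in total RNA and 0.42 in stability, beside 0.0011, -0.10 and -0.09 over all tested genes. Scaling by library size alone moved the all-gene medians to 0.21, 0.06 and -0.14. It raised the share of calls that were higher in KO from 49.5% to 74.1% in nascent RNA and from 38.6% to 60.3% in total RNA, and lowered it from 30.6% to 20.3% in stability. TMM within each assay raised that share to 50.8% in total RNA and 55.9% in stability, and DESeq2 raised it to 44.1% in stability. No called direction of the 9 genes turned under any of these scalings. The 735 tested genes of chromosome 6, which holds none of the 9, had median log2 fold changes of 0.53 in nascent RNA, 0.43 in total RNA and -0.13 in stability.

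**Figure D1:**
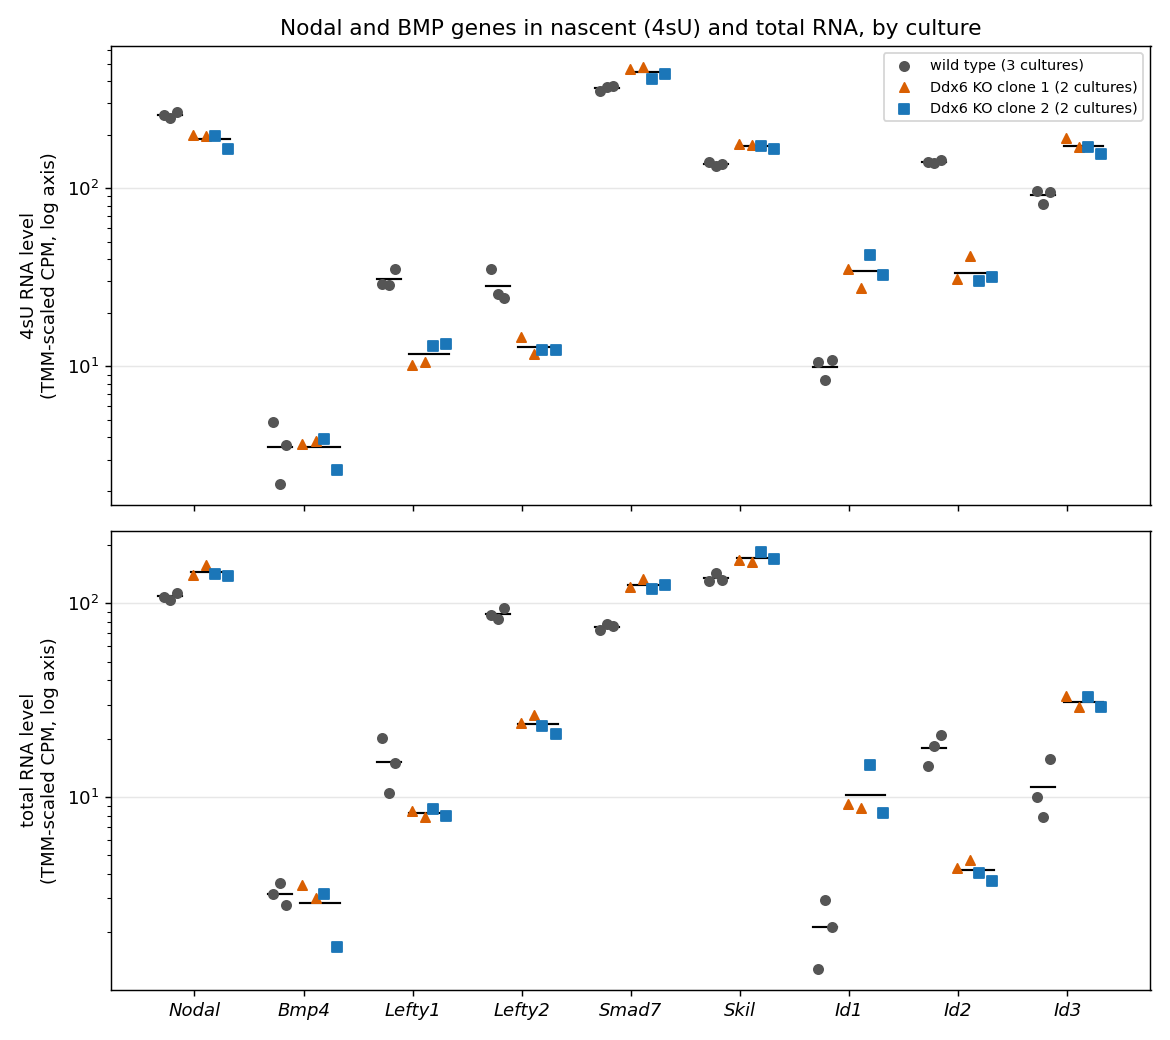
TMM-scaled CPM of the 9 genes in 4sU RNA (upper panel) and total RNA (lower panel), on log axes, with 1 point per culture for wild type (grey circles), KO clone 1 (orange triangles) and KO clone 2 (blue squares) and a line at the mean of each genotype. The cultures of both genotypes are apart for every gene but Bmp4 in both panels, Nodal lies lower in KO in 4sU RNA and higher in total RNA, and Id2 lies opposite to Id1 and Id3.

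Nodal, the ligand (ENSMUSG00000037171, chr10:61417972-61425338, plus strand), had less nascent RNA and more total RNA in Ddx6 KO. Its 4sU level was 257, 247 and 268 CPM in wild type, 199 and 196 CPM in clone 1 and 198 and 165 CPM in clone 2. Its total level was 108, 104 and 114 CPM in wild type, 140.1 and 157 CPM in clone 1 and 141 and 138 CPM in clone 2. Every KO culture lay below every wild-type culture in nascent RNA and above every one in total RNA. On the log2 scale the change was -0.44 ± 0.07 in nascent RNA (adjusted p = 2.17e-07) and 0.41 ± 0.07 in total RNA (adjusted p = 5.11e-07). The total over 4sU ratio was nearly constant within wild type, between -1.25 and -1.24 on the log2 scale, and lay between -0.50 and -0.26 in KO. Nodal stability thus rose by 0.85 ± 0.09 on the log2 scale (adjusted p = 1.43e-09), the largest stability change of the 9 genes, and by 0.84 in clone 1 and 0.88 in clone 2 when each was fitted alone.

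Bmp4, the BMP ligand (ENSMUSG00000021835, chr14:46383520-46390669, minus strand), was near the limit of detection in both genotypes. It had 6 to 11 counts in wild-type and 10 to 13 in KO 4sU libraries, and 17 to 22 and 11 to 24 in total RNA. The means were 3.54 ± 1.33 CPM and 3.51 ± 0.599 CPM in 4sU RNA, and 3.17 ± 0.425 and 2.83 ± 0.791 CPM in total RNA. The ranges overlapped in both assays. KO minus wild type came to 0.0034 ± 0.39 and -0.15 ± 0.30 on the log2 scale, with adjusted p of 0.996 and 0.707, and errors of that size leave changes of the order seen for Nodal undetectable at this depth. Antisense genes that overlap Bmp4, Gm15217 and Gm15222, had at most 1 count in any library under strand-aware counting.

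Lefty1 and Lefty2, the secreted inhibitors of Nodal, both lost nascent RNA in Ddx6 KO. Lefty1 (ENSMUSG00000038793, chr1:180935022-180938400) had 4sU levels of 29.1, 28.8 and 35.3 CPM in wild type, 10.2 and 10.5 CPM in clone 1 and 12.9 and 13.4 CPM in clone 2. Lefty2 (ENSMUSG00000066652, chr1:180893108-180899103) had 35.3, 25.5 and 24.1 CPM in wild type, 14.7 and 11.8 CPM in clone 1 and 12.3 and 12.3 CPM in clone 2. No KO culture reached a wild-type one for either gene. The nascent log2 fold changes were -1.40 ± 0.18 for Lefty1 (adjusted p = 2.87e-09) and -1.12 ± 0.16 for Lefty2 (adjusted p = 3.38e-08).

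Total RNA of the pair fell by different amounts. Lefty1 total RNA was 20.2, 10.5 and 15.0 CPM in wild type, 8.43 and 7.84 CPM in clone 1 and 8.65 and 7.98 CPM in clone 2, and its wild-type cultures spread more widely than those of KO. The Lefty2 total level was 86.8, 82.9 and 94.3 CPM in wild type, 24.0 and 26.5 CPM in clone 1 and 23.2 and 21.2 CPM in clone 2, with a wide gap between the genotypes. The log2 fold changes were -0.87 ± 0.17 for Lefty1 (adjusted p = 1.26e-05) and -1.89 ± 0.09 for Lefty2 (adjusted p = 3.95e-25), the latter a 3.7-fold lower level.

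The total over 4sU ratio fell for Lefty2, and the Lefty1 ratio did not pass the test. In wild type Lefty2 had log2 ratios of 1.29, 1.68 and 1.94 and ranked at the 93.2 percentile of all tested genes, and in KO it had 0.69 and 1.13 in clone 1 and 0.88 and 0.76 in clone 2, at the 79.6 percentile. Lefty1 had -0.52, -1.42 and -1.21 in wild type and -0.26, -0.40, -0.55 and -0.71 in KO, and here the groups overlapped. Lefty2 stability fell by 0.76 ± 0.19 (adjusted p = 0.00321), whereas the Lefty1 value was 0.52 ± 0.25 and did not pass (adjusted p = 0.17, and 0.0473 without wild-type culture 1). The difference between both genes, taken per culture as the Lefty2 minus the Lefty1 log2 ratio, was 2.68 ± 0.76 in wild type and 1.35 ± 0.27 in KO. Its exact two-sided permutation test gave p = 0.0571, the smallest value that 3 against 4 cultures can give, and this pair was compared after the values were seen. The transcripts share 306 runs of 50 bases, 17.9% of those of Lefty1 and 11.95% of those of Lefty2. Only uniquely mapped reads were counted, so single-end reads that lie wholly in the shared stretches are missing from both genes. The second run of the 4sU libraries was paired-end, so this loss may differ between 4sU and total RNA, which was not tested. Both genes carry the 8-base site printed above.

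**Figure D2:**
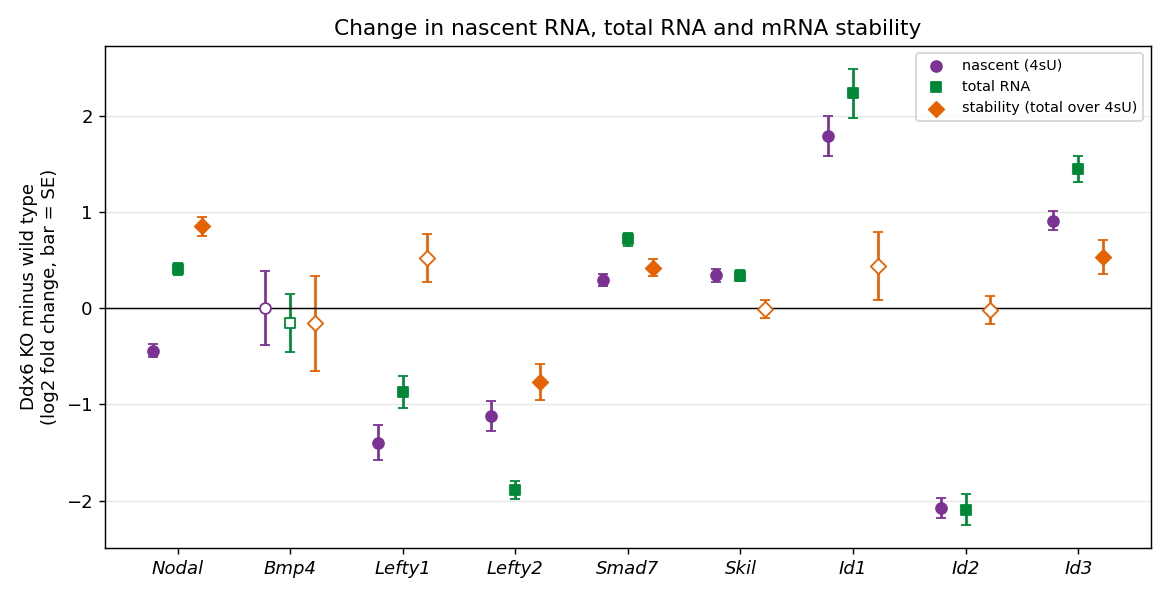
Log2 fold change of Ddx6 KO over wild type for the 9 genes in nascent RNA (purple circles), total RNA (green squares) and mRNA stability (orange diamonds), with bars for the SE; filled symbols passed an adjusted p of 0.05. Nodal has nascent and total changes of opposite sign, and Lefty2 is the only gene with a called fall in stability (-0.76). The Id2 and Skil stability values lie near 0, and that of Bmp4 (-0.15 ± 0.49) did not pass.

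Smad7, the inhibitory SMAD (ENSMUSG00000025880, chr18:75367529-75395935, plus strand), rose in every measure. Its 4sU level was 352, 371 and 373 CPM in wild type, 467 and 481 CPM in clone 1 and 411 and 437 CPM in clone 2. The total level was 72.8, 77.9 and 75.9 CPM in wild type, 121 and 133 CPM in clone 1 and 119 and 125 CPM in clone 2. All KO cultures were above all wild-type cultures in both assays. This gave log2 fold changes of 0.30 ± 0.06 in nascent RNA (adjusted p = 4.86e-05), 0.72 ± 0.07 in total RNA (adjusted p = 7.46e-14) and 0.42 ± 0.09 in stability (adjusted p = 0.000686). The log2 ratio moved from between -2.29 and -2.24 in wild type to between -1.94 and -1.79 in KO, groups that did not overlap.

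Skil, the corepressor (ENSMUSG00000027660, chr3:31095058-31122577, plus strand), rose in nascent and total RNA by the same amount. Nascent levels were 139.7, 133 and 137 CPM in wild type, 177 and 175 CPM in clone 1 and 174 and 167 CPM in clone 2. Total levels were 131, 143 and 132 CPM in wild type, 168 and 164 CPM in clone 1 and 185 and 168 CPM in clone 2. The genotypes did not overlap in either assay. The log2 fold changes were 0.34 ± 0.07 (adjusted p = 4.98e-05) and 0.34 ± 0.06 (adjusted p = 3.57e-06), and the stability value was -0.0047 ± 0.09 (adjusted p = 0.986). When the 4sU reads came from the re-sequencing run alone, the nascent change was 0.23 with an adjusted p of 0.0681.

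Id1 and Id3 rose and Id2 fell, and the change was present in nascent RNA for all 3 inhibitors of DNA binding. Id1 (ENSMUSG00000042745, chr2:152736251-152737410, plus strand) had 4sU levels of 10.6, 8.38 and 10.8 CPM in wild type, 35.1 and 27.5 CPM in clone 1 and 42.4 and 32.6 CPM in clone 2. Its total RNA was at 1.3, 2.95 and 2.14 CPM in wild type, from 7, 18 and 14 counts, and at 9.22, 8.76, 14.6 and 8.29 CPM in KO. The KO cultures were all higher, and KO clone 2 culture 1 stood highest in both assays. Id1 log2 fold changes were 1.80 ± 0.21 in nascent RNA (adjusted p = 2.23e-10) and 2.24 ± 0.25 in total RNA (adjusted p = 1.12e-10), the latter a 4.72-fold higher level and the largest rise of the 9 genes. Stability was 0.44 ± 0.35 and did not pass (adjusted p = 0.482), with log2 ratios of -2.62, -1.37 and -2.10 in wild type around the -1.91 to -1.51 of KO. With 2 CPM added to each level in place of 0.5 CPM, the mean log2 ratio was -1.54 in wild type and -1.59 in KO. The order of the genotypes in this ratio thus depended on the value added.

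Id2 (ENSMUSG00000020644, chr12:25093799-25097140, minus strand) was the gene with the largest loss. Nascent Id2 RNA was 139.7, 139 and 144 CPM in wild type, 30.8 and 41.5 CPM in clone 1 and 30.1 and 31.8 CPM in clone 2. Total Id2 RNA was 14.4, 18.3 and 20.8 CPM in wild type, 4.29 and 4.70 CPM in clone 1 and 4.06 and 3.69 CPM in clone 2, the KO values from 24 to 36 counts. The genotypes were far apart in both assays. The log2 fold changes of -2.08 ± 0.10 in nascent RNA (adjusted p = 1.3e-24) and -2.09 ± 0.16 in total RNA (adjusted p = 5e-17) were alike in size, 4.22-fold and 4.27-fold lower levels. Id2 stability was -0.02 ± 0.15 (adjusted p = 0.969), and the log2 ratios of KO, -3.01 to -2.71, overlapped with those of wild type, -3.23 to -2.77. The transcripts of Id2 share 8 of 2433 runs of 50 bases with Gm6175, and Id1 and Id3 share none with any gene.

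Id3 (ENSMUSG00000007872, chr4:136143497-136145755, plus strand) rose more in total than in nascent RNA. In the 4sU fraction it was at 96.9, 81.7 and 95.8 CPM in wild type, 191 and 170.2 CPM in clone 1 and 171 and 156 CPM in clone 2. In total RNA it was at 9.997, 7.86 and 15.8 CPM in wild type, 33.1 and 29.1 CPM in clone 1 and 32.8 and 29.02 CPM in clone 2. No wild-type culture reached a KO one, though wild-type culture 3 stood above the other two in total RNA. The log2 fold changes were 0.91 ± 0.10 in nascent RNA (adjusted p = 4.97e-10) and 1.45 ± 0.14 in total RNA (adjusted p = 1.56e-11). Stability rose by 0.54 ± 0.17 (adjusted p = 0.0366), from log2 ratios of -3.21, -3.30 and -2.57 in wild type to -2.53 to -2.37 in KO. That call was lost under 7 of 20 alternatives, among them leaving out wild-type culture 1 (0.43, adjusted p = 0.232), wild-type culture 2 (0.41, adjusted p = 0.16), KO clone 1 culture 2 (0.56, adjusted p = 0.0566) or KO clone 2 culture 1 (0.51, adjusted p = 0.0999).

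Promoter sequence was at hand for 4 of the 9 genes (Id2, Id3, Nodal and Bmp4), as the 250 bases before the start in RefSeq on GRCm38.p6. For Id2 and Id3 this start lies inside the Gencode gene span given above, and so does the window. CAGAC, a letter run that SMAD proteins bind, was searched on both strands and occurred in Id3 alone of the 4, at 167 and 68 bases before the start, and in 42.2% of 32851 promoters. GGCGCC, bound by BMP-activated SMADs, occurred once, in Id2, at 231 bases before the start, and in 9.59% of all promoters. AATCCACA, the FOXH1 letters, occurred in none of the 4 and in 0.718% of all promoters. The windows of the 2 Id genes that moved in opposite directions are given with the motif in capitals, on the strand of the gene.
Id3, plus strand, chr4:136143643-136143672: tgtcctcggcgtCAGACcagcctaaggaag
Id3, plus strand, chr4:136143742-136143771: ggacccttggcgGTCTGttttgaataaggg
Id2, minus strand, chr12:25096306-25096335: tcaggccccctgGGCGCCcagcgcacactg

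The KO clones were also compared with each other. Of the 9 genes, 0 passed the test of clone 2 minus clone 1 in nascent RNA, total RNA or stability by edgeR, where 0.172%, 0.296% and 0.00689% of all genes did, and limma-voom also gave 0. At an unadjusted p under 0.05 there was 1 value, the nascent RNA of Smad7 (log2 difference -0.16 ± 0.07, adjusted p = 0.719). The clones did differ in Ddx6 itself, by -1.49 ± 0.11 in total RNA (adjusted p = 9.7e-16). Each clone fitted alone gave the same direction for all 20 calls.

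**Figure D3:**
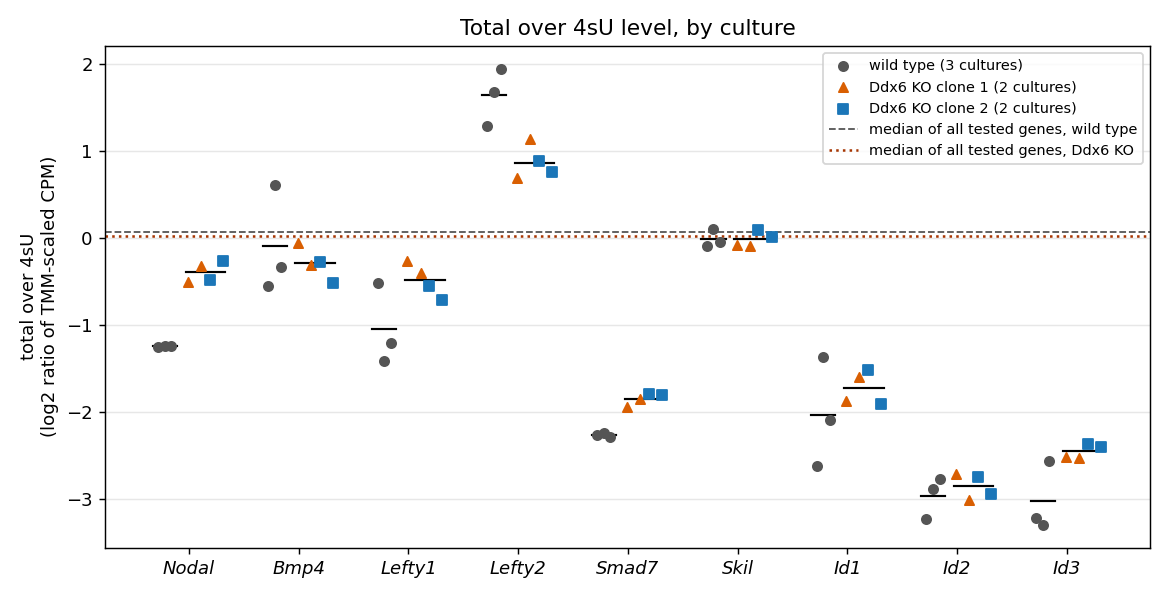
Log2 ratio of total over 4sU RNA, from TMM-scaled CPM with 0.5 CPM added, for each of the 9 genes and 7 cultures, with lines for the mean of each genotype and for the median of all tested genes (0.07 in wild type, 0.02 in KO). Lefty2 alone lies above the medians in every culture, Id2 and Id3 have the lowest means, and the wild-type points of Nodal and Smad7 fall almost on each other.

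Set against all genes, most of the 9 had little total RNA for the RNA that was made. The wild-type log2 ratio placed Id3 at the 4.73 percentile of all tested genes, Id2 at 5.21, Smad7 at 11.5, Id1 at 13.8, Nodal at 22.9 and Lefty1 at 25.9. Bmp4 and Skil lay near the middle, at 45.3 and 47.6, and Lefty2 at 93.2. In KO, Nodal was at 38.0, Lefty1 at 35.7, Id3 at 9.07 and Id2 at 5.66.

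Per kilobase of exon, the order of the genes differed between the fractions. In wild-type 4sU RNA the levels per kilobase ran from Nodal (123 ± 5.13 CPM per kb) through Smad7 (83.4 ± 2.68), Id3 (71.6 ± 6.66), Id2 (57.8 ± 1.22), Skil (20.3 ± 0.524), Lefty1 (19.2 ± 2.26), Lefty2 (11.4 ± 2.45) and Id1 (8.55 ± 1.15) to Bmp4 (1.72 ± 0.645). Of these neighbours, Skil and Lefty1 were the only pair whose ranges overlapped. In wild-type total RNA Nodal was again first (51.8 ± 2.22 CPM per kb) but was followed by Lefty2 (35.6 ± 2.34), Skil (20.1 ± 1.0), Smad7 (17.2 ± 0.598), Lefty1 (9.39 ± 3.0), Id3 (8.77 ± 3.2), Id2 (7.33 ± 1.32), Id1 (1.83 ± 0.712) and Bmp4 (1.53 ± 0.206). Lefty1, Id3 and Id2 could not be ordered beyond their spread there, nor could Id1 and Bmp4.

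In KO the top of the nascent order changed to Id3 (135 ± 11.3 CPM per kb), Smad7 (103 ± 7.14) and Nodal (90.5 ± 7.7), of which the last 2 overlapped. Id1 moved up the order to the place after Nodal (29.6 ± 5.37) and overlapped with Skil (25.8 ± 0.642), and Id2 dropped below Skil (13.8 ± 2.19). In KO total RNA Nodal stayed first (68.8 ± 4.24), Smad7, Skil and Id3 followed with overlapping neighbours, and Lefty2 moved from the place after Nodal to below Id3 (9.60 ± 0.893), where it overlapped with Id1 (8.80 ± 2.52). Id2 stood last but 1 there (1.72 ± 0.175) and overlapped with Bmp4 (1.37 ± 0.383).

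The other genes of both pathways, 65 in 11 lists by role, gave mixed directions, and 47 of them were tested. In nascent RNA 16 rose and 11 fell (34.0% and 23.4%), in total RNA 10 rose and 16 fell, and in stability 4 rose and 8 fell. Their medians were -0.02, 0.0022 and -0.07, beside 0.0011, -0.10 and -0.09 over all tested genes. The shares of all genes that passed are those given above for the 9 genes.

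Among ligands and co-receptors of the Nodal and Activin branch, Inhbb, which encodes the subunit of Activin B, rose furthest. Inhbb went from 7.79 ± 1.36 CPM to 61.6 ± 3.17 CPM in 4sU RNA and from 7.47 ± 0.24 to 78.8 ± 6.13 CPM in total RNA, log2 fold changes of 2.99 ± 0.15 (adjusted p = 6.2e-24) and 3.39 ± 0.11 (adjusted p = 5.73e-33). Tdgf1 (Cripto), the Nodal co-receptor, rose in nascent RNA by 0.90 ± 0.07 (adjusted p = 8.55e-17), from 196 ± 9.49 to 365 ± 35.8 CPM. Its total RNA was 486 ± 34.8 and 509 ± 19.7 CPM (adjusted p = 0.343), and its stability fell by 0.83 ± 0.09 (adjusted p = 6.41e-10). Gdf1, Inhba and Cfc1 were not tested for lack of counts.

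Of 6 tested receptors for Activin, Nodal and TGF-beta, 3 rose and 0 fell in nascent RNA, and 2 rose and 2 fell in total RNA. Tgfbr2, the type II TGF-beta receptor, rose in both, from 6.28 ± 0.241 to 23.4 ± 3.59 CPM in 4sU RNA and from 2.51 ± 0.505 to 14.1 ± 1.23 CPM in total RNA (2.48 ± 0.21, adjusted p = 2.46e-15). Of 4 tested BMP receptors, 3 rose and 1 fell in nascent RNA. The one that fell, Eng (endoglin), went from 33.2 ± 4.69 to 16.3 ± 2.4 CPM (-1.02 ± 0.15, adjusted p = 4.76e-08). Pcsk6, a convertase that cleaves the Nodal precursor, fell in total RNA from 146 ± 4.55 to 60.5 ± 5.63 CPM (-1.27 ± 0.07, adjusted p = 1.07e-21), and its stability value was -0.58 ± 0.14 (adjusted p = 0.00255; 0.0898 with the re-sequencing run alone and 0.0553 with clone 1 alone).

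None of 3 tested BMP ligands other than Bmp4 (Bmp2, Bmp7 and Bmp8a) passed in any contrast. Of 5 tested receptor-regulated and common SMADs, 2 rose in nascent RNA and 1 in total RNA. Smad6, the inhibitory SMAD of the BMP branch, went the opposite way to Smad7: its level fell from 15.5 ± 0.738 to 5.07 ± 1.83 CPM in 4sU RNA (-1.62 ± 0.24, adjusted p = 1.44e-07) and from 16.4 ± 3.22 to 7.75 ± 0.993 CPM in total RNA (-1.09 ± 0.17, adjusted p = 2.27e-07). Among 5 tested secreted antagonists, Fst (follistatin, which binds Activin) fell in nascent RNA from 30.5 ± 2.47 to 13.9 ± 3.32 CPM (-1.14 ± 0.17, adjusted p = 1.39e-07). Twsg1, which modulates BMP ligands, fell in stability by 0.50 ± 0.12 (adjusted p = 0.00414; 0.197 with the re-sequencing run alone and 0.157 with clone 1 alone).

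Of 6 tested targets of Nodal and Activin outside the 9 genes, 3 fell and 0 rose in nascent RNA, and 4 fell and 1 rose in total RNA. Gsc, a transcription factor of the organizer, fell in total RNA from 6.23 ± 0.837 to 1.84 ± 0.602 CPM (-1.76 ± 0.30, adjusted p = 1.58e-06). Of the 4 fibroblast markers, Thy1 and Col1a1 rose in total RNA, by 1.47 and 0.97 on the log2 scale, to 7.11 and 4.65 CPM in KO. Col1a2 and Col3a1 stayed near 0, at 0.183 and 0.0328 CPM in KO. Whether fibroblasts were present was not tested, nor was any part of them in the rises of Inhbb and Tgfbr2.

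Of 5 tested BMP targets outside the 9 genes, 1 rose and 2 fell in nascent RNA. Bambi, a pseudoreceptor that dampens BMP signals, went from 92.7 ± 1.57 to 45.0 ± 2.76 CPM in 4sU RNA (-1.04 ± 0.10, adjusted p = 7.27e-14) and from 22.9 ± 1.77 to 17.4 ± 0.738 CPM in total RNA (adjusted p = 0.0019, and 0.0655 with library size alone), and its stability rose by 0.65 ± 0.15 (adjusted p = 0.00128). Hey1, a helix-loop-helix repressor, fell in nascent RNA from 6.91 ± 0.564 to 2.48 ± 0.971 CPM (-1.48 ± 0.36, adjusted p = 0.000574; 0.089 with the re-sequencing run alone).

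**Figure D4:**
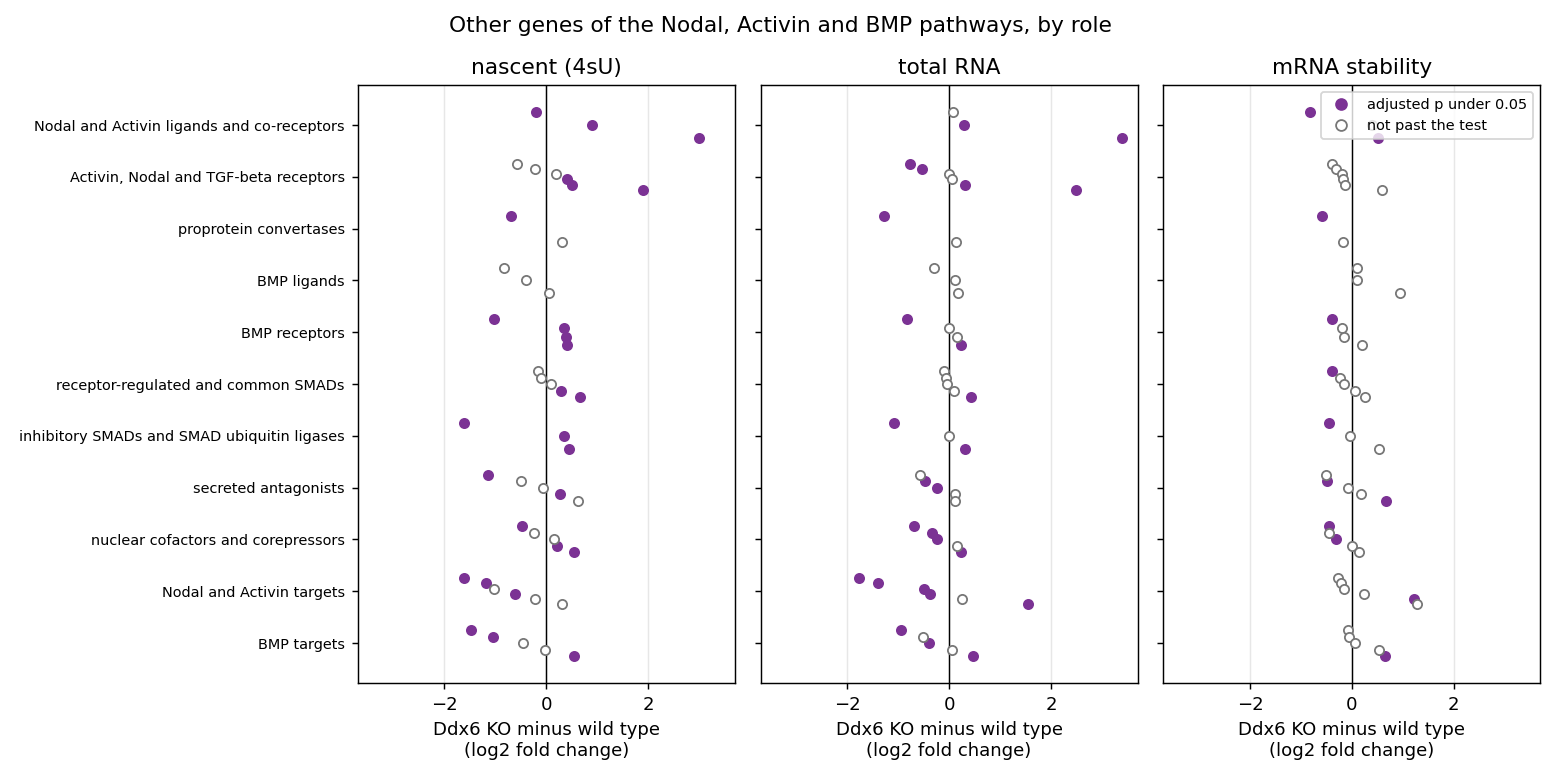
Log2 fold change of Ddx6 KO over wild type for the 47 tested pathway genes other than the 9, by role (rows) in nascent RNA, total RNA and mRNA stability (panels); filled points passed an adjusted p of 0.05. In nascent RNA each of the 11 roles holds points on both sides of 0, and the rightmost point in nascent and total RNA is Inhbb (2.99 and 3.39).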

How the data were processed

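RNA was measured in 7 mouse ESC cultures, each split into a 4sU-labelled and a total RNA library. The authors trimmed reads with Cutadapt 1.14, aligned them to mm10 with STAR 2.5.3a and kept uniquely mapped reads. They counted exons on the reverse strand with featureCounts 1.5.3 over Gencode M14, and deposited raw counts per gene, one table per sequencing run. The 4sU libraries were run single-end and again paired-end, and both runs were summed here. The 92 spike-in rows held 0 counts and were left out, so all changes are relative to the libraries.

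The 9 genes and the pathway lists were chosen with earlier results of these data known. Named pathway genes are those past an adjusted p of 0.05 and an absolute log2 fold change over 1 in any contrast, plus the 3 highest and 3 lowest called in each; Gdf1, Inhba, Cfc1, Bmp2, Bmp7 and Bmp8a were named after their values were seen. Some genes that the rule names are not reported here.

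Genes with at least 3 CPM in 3 libraries were fitted with edgeR 4.0.16 (TMM, robust quasi-likelihood test, R 4.3.3) over genotype, assay and their interaction, the design of the study; stability is the interaction. P-values were adjusted by Benjamini-Hochberg over 14518 genes. SE is the log2 fold change over the root of F. Ratios per culture used a pseudocount of 0.5 CPM. Labels put 4sU and total RNA of a culture under 1 number and the protocol splits each culture, and their deviations correlated with r from 0.0038 to 0.117 over 10244 genes. Alternatives were DESeq2 1.42.0, limma-voom 3.58.1, scalings, filters, runs, clones, blocks and each culture left out. Coordinates are from Gencode M21; 51274 of 51467 genes matched it. The floors of 3 counts cover counting error only.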

Additional observations from a re-analysis of the deposited data

Results flagged for a closer look

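In 27 groups of 4 KO cultures (9 genes in 4sU RNA, total RNA and their ratio), 4 held a culture far from the other 3 by Dixon's test, where chance alone gives about 1.35. Id1 total RNA was 14.6 CPM in KO clone 2 culture 1, above the other KO cultures. Id2 4sU RNA was 41.5 CPM in KO clone 1 culture 2, above the others. Nodal 4sU RNA was 165 CPM in KO clone 2 culture 2, below the others, and Nodal total RNA was 157 CPM in KO clone 1 culture 2, above them. In each case the culture lay on the same side of every wild-type culture as the other KO cultures.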

How the results depend on the processing

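Of 20 calls among the 9 genes, 18 were kept under every alternative run, and the exceptions were Id3 stability and the nascent RNA of Skil. Lefty1 stability, not called at 0.52, passed without wild-type culture 1 (0.81, adjusted p = 0.0473). The remaining changes in fold changes of the 9 genes were of sign, in values that were not called. Id2 stability (-0.02) turned positive with DESeq2 (0.036), limma-voom (0.012), TMM within each assay (0.073), no filter (0.030), a stricter filter (0.018) and the re-sequencing run alone (0.076), and ran from -0.13 to 0.096 as single cultures were left out. Skil stability turned positive with DESeq2 (0.053), TMM within each assay (0.085), TMM outside chromosome 6 (0.0013), no filter (0.041), a stricter filter (0.029), the re-sequencing run (0.11) and clone 2 alone (0.071), and ran from -0.042 to 0.058 without single cultures. Bmp4 turned in nascent RNA with DESeq2 (-0.031), the single-end run (-0.20), clone 2 alone (-0.095) and the replicate number as a block (-0.058), in total RNA with library size alone (0.0035) and clone 1 alone (0.056), and in stability with the single-end run (0.056); without single cultures it ran from -0.26 to 0.26, from -0.25 to 0.026 and from -0.42 to 0.21. The cause was not tested.

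Counts of called pathway genes moved from 27 to 16 in nascent RNA with the re-sequencing run alone, where fewer reads entered, and from 12 to 7 in stability with clone 1 or clone 2 alone, where fewer cultures entered; without single cultures the stability count ran from 7 to 12, and was 7 without wild-type culture 2. With culture as a block, 4 of the 9 genes were called in stability, as without it, and no other call of the 9 changed with either block. Wild type and KO share only a replicate number (r from -0.06 to 0.13), and with that number as a block the 9 genes had 8, 8 and 4 calls. Depth limits Bmp4 most, with 6 to 24 counts per library.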
